A study of Mus musculus with 127 samples.

Results

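Mouse chromosome 6 was followed through 10 single nuclei by its 10 kb windows of the mm10 genome. All windows listed on chromosome 6 were taken. Membership rests on the chromosome name and not on any measured value, although the chromosome was picked with earlier results of these data known. They came to 74934 window listings of 1222168 in all, against 1057701 on the other 18 autosomes. The nuclei were those of mouse embryonic stem cells of a CAST x 129 hybrid strain, grown with LIF on feeder cells and passed onto feeder-free plates before use, with no treatment. In sequential genome architecture mapping a nucleus is cut into serial slices called nuclear profiles, and the DNA of each slice is amplified and sequenced. Profiles titled B18F came from 6 nuclei (Cell25, Cell26, Cell27, Cell28, Cell38 and Cell39), and profiles titled B16F from 4 nuclei (Cell17, Cell18, Cell19 and Cell20), 122 profiles in all. In that order the B18F nuclei gave 15, 7, 8, 8, 10 and 11 profiles, and the B16F nuclei 23, 16, 12 and 12. All nuclei share strain, cell type and lack of treatment, and the labels do not say what the title prefix stands for or whether nuclei came from separate cultures. Positions carry no expression or marker measurement, so the labelled cell type could not be checked against markers.

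Each nucleus has 2 files of positions, numbered 0 and 1, and each file gives a located window 1 position along the axis. What the files stand for is not given in the sources used here. A position is a depth along 1 axis, so windows at the same position can lie far apart in the other directions of the nucleus. The axis unit is not named, so positions are given as percent of the sampled span, with 0 at its low end and 100 at its high end. The direction of the axis is arbitrary between nuclei. A nucleus cut into few slices has coarse positions. Positions, steps, distances and limits in percent of the span are therefore not directly comparable between nuclei. The nucleus was the replicate in all tests, and values after ± are SDs over nuclei. For the other autosomes each nucleus gives 1 value that joins many chromosomes. Their SD is therefore not comparable with that of chromosome 6 and does not show how single autosomes vary.

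In an interphase nucleus each chromosome folds into its own territory, and within it gene-rich and gene-poor stretches tend to separate. A territory that is small along the cutting axis puts its loci into few neighbouring slices. Mouse chromosome 6 carries the pluripotency gene Nanog, the Hoxa homeobox cluster that patterns the body axis, the immunoglobulin kappa locus, imprinted genes such as Mest and Peg10, and the natural killer receptor complex. It also holds very long neuronal genes, among them Cntnap2 and Ctnna2, and it lists 1120 protein-coding genes in the RefSeq table of GRCm38.p6.

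Landmark sequences are shown because the position of the 10 kb window around each can be read nucleus by nucleus. The first is the Nanog promoter at chr6:122707239-122707538 on the plus strand, from RefSeq on GRCm38.p6. Capitals mark TTTGCAT and ACAATG, the adjoining parts of the composite Oct4 and Sox2 element known in this promoter.
Nanog promoter: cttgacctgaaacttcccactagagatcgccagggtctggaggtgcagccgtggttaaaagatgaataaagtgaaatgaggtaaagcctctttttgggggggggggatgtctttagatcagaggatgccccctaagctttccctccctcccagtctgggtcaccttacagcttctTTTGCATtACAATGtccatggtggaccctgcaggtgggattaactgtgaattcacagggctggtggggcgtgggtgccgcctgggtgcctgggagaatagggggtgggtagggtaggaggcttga
Searched on both strands and without overlap with each other here, TTTGCAT was in 4.63% and ACAATG in 12.6% of 32851 RefSeq promoters of the same length. A match describes letters only. Mature microRNAs of chromosome 6 from the same source follow, with the seed (bases 2 to 8) in capitals.
miR-335-5p: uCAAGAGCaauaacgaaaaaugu
miR-196b-5p: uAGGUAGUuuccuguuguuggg
miR-141-3p: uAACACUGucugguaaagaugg
miR-200c-3p: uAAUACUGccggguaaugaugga
The gene of miR-335-5p lies within Mest at chr6:30741314-30741336, plus strand. That of miR-196b-5p lies in the Hoxa cluster at chr6:52230129-52230150, minus strand. The genes of miR-141-3p (chr6:124717917-124717938) and miR-200c-3p (chr6:124718324-124718346), both on the minus strand, belong to the miR-200 family, which restrains the epithelial to mesenchymal transition, and share 1 window. None of the 4 seeds is the same as another.

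The window of the Nanog promoter was located in 6 of 10 nuclei and in 7 of 20 files. It lay at 85.8% of the span in Cell25, 16.7% in Cell26, 14.3% and 28.6% in files 0 and 1 of Cell28, 10% in Cell38, 7.01% in Cell17 and 50% in Cell18. The window of miR-335-5p was located in 7 nuclei, at positions from 30.01% in Cell27 to 100% in Cell38. The shared window of miR-141-3p and miR-200c-3p was located in 6 nuclei, at 21.4% in both files of Cell25, 66.7% in Cell26, 32.4% in Cell17, 0% in Cell18, 54.5% in both files of Cell19 and 46.6% in Cell20. No order of these positions between nuclei can be read, since each axis has its own direction.

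Located windows on chromosome 6 numbered 7493 ± 2634 per nucleus (n = 10, both files added). The B18F nuclei had 10423 (Cell25), 10260 (Cell26), 10259 (Cell27), 6274 (Cell28), 5172 (Cell38) and 3191 (Cell39), and the B16F nuclei had 10432 (Cell17), 6541 (Cell18), 6528 (Cell19) and 5854 (Cell20). The ranges of the groups overlap. Of 14659 possible windows on the chromosome, file 0 held from 7.20% to 36.7% and file 1 from 11.9% to 39.6%. No read counts are given, so the depth behind a window is unknown, and the number of located windows limits the precision of each position.

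The density of located windows on chromosome 6, divided by that on the other autosomes of the same nucleus, was lowest in Cell28 at 0.669-fold and highest in Cell27 at 1.40-fold. It was 0.988-fold in Cell25, 1.35-fold in Cell26, 0.909-fold in Cell38 and 0.996-fold in Cell39 among the B18F nuclei. Among the B16F nuclei it was 1.27-fold in Cell17, 1.22-fold in Cell18, 1.001-fold in Cell19 and 1.22-fold in Cell20. Chromosome 6 was the most densely located of the 19 autosomes in Cell17 and Cell27 and the second least dense in Cell28. The mean log2 ratio was 0.11 ± 0.32, above 0 in 6 of 10 nuclei (exact two-sided sign-flip permutation p = 0.307, adjusted p = 0.489 over 19 autosomes). Of the 19 autosomes, 0% passed the adjusted threshold and 5.26% passed unadjusted.

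**Figure D1:**
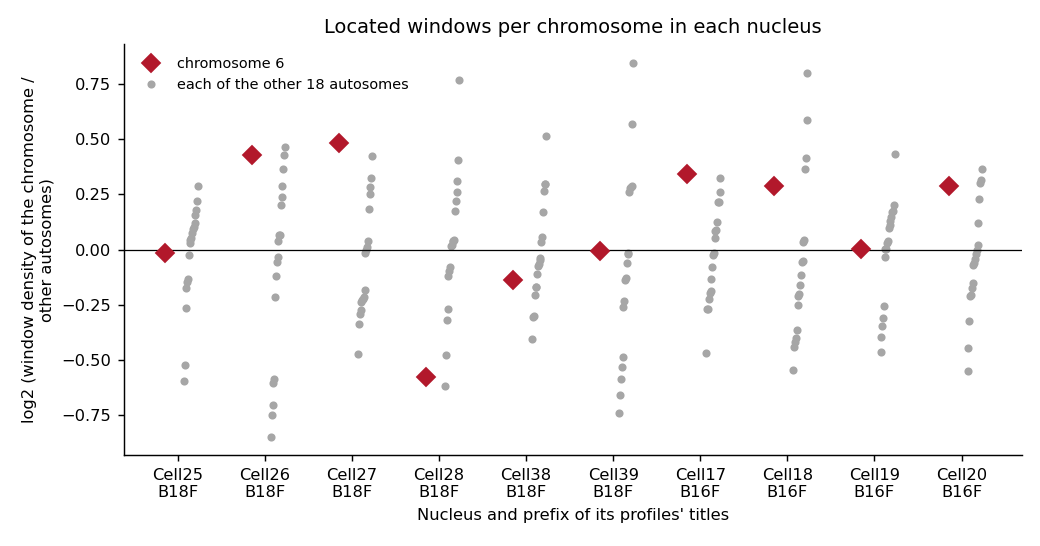
Log2 of the window density of a chromosome over that of the other autosomes of the same nucleus. Red diamonds are chromosome 6 and grey points the other 18 autosomes, by nucleus, B18F nuclei on the left and B16F nuclei on the right. The diamond tops the points in Cell17 and Cell27, lies near the bottom in Cell28 and near 0 in Cell19, Cell25 and Cell39.

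Coverage was uneven along the chromosome. In 10 Mb segments, the stretch from 13 to 23 Mb (Foxp2, Cav1 and Met lie there) was the least covered, with 41.1 ± 16.1 located windows per 100 possible windows (both files added), or 0.804 times the mean segment of the nucleus. It was below that mean in 9 of 10 nuclei. The segment from 113 to 123 Mb, which ends past Nanog, was the best covered relative to its nucleus at 1.15 times the mean, above it in 8 of 10 nuclei. Segments 43 to 53 Mb and 83 to 93 Mb both stood at 1.11 times, above the mean in 7 and 8 nuclei. These segments hold 30, 127, 86 and 157 protein-coding genes, in that order. Segments with more genes tended to be better covered, which was not tested for segments. The orders were not identical, since the segments with the most and the fewest genes were not the best and the least covered. Segment 123 to 133 Mb, with the most genes (176), stood at 1.10 times, above the mean in 6 nuclei. Segment 103 to 113 Mb, with the fewest (21), stood at 0.905 times.

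**Figure D2:**
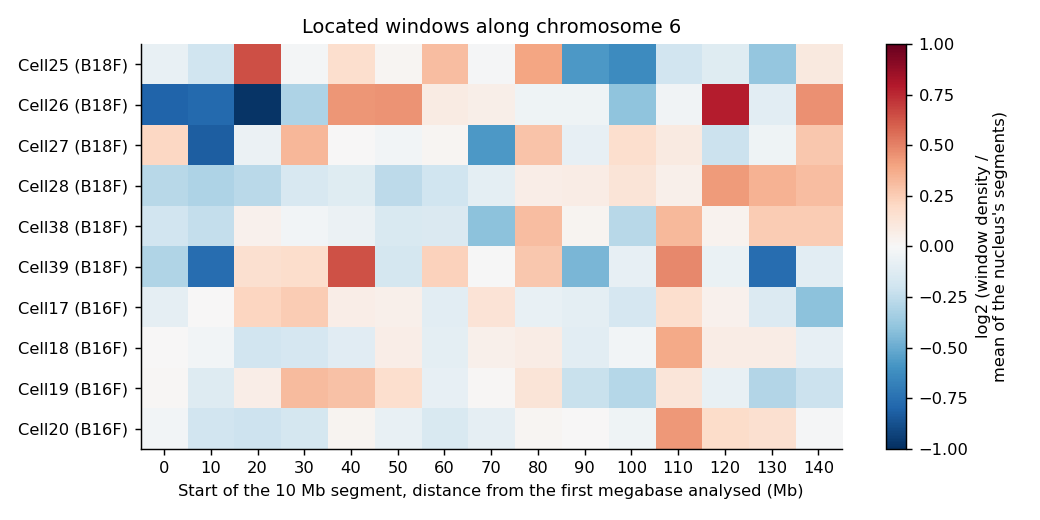
Log2 of the window density of each 10 Mb segment (the last is shorter) over the mean of the nucleus's segments, B18F nuclei above and B16F nuclei below. Red is above and blue below the mean, and values past the ends of the scale take the end colour. The second column is blue in 9 of 10 nuclei, and the contrasts are strongest in Cell26, Cell39 and Cell25.

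Windows and protein-coding genes per 1 Mb bin correlated weakly. Spearman's rho over 146 bins was above 0 in 10 of 10 nuclei, with a mean of 0.227 and a range from 0.0915 to 0.509. On the other autosomes its mean was 0.138. Bins of a nucleus share their library and amplification, base composition was not available, and no p is given.

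Against the mean of all autosomal bins of the nucleus, 15 of 146 bins of chromosome 6 passed an unadjusted sign-flip permutation test, 6 higher and 9 lower, or 4.11% and 6.16%. The count was 29 against the mean of the chromosome's own bins and 10 without Cell26. No share over all autosomal bins is given for these 2 settings, so neither count can be set against a background. With all nuclei and the mean of all autosomal bins, the shares over 2394 bins of all autosomes were 2.8% higher and 16.4% lower, 19.2% in either direction. A mean of log2 values lies below the log2 of a mean, so bins tend to fall below 0 here. For bin coverage 0 is therefore not the value of no change. No call is read from the p-values of bins, which are given as a description. After adjustment 0 bins of chromosome 6 passed (smallest adjusted p = 0.107), and the background was 0%.

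The least covered bin was 17 to 18 Mb. It holds Met, the receptor of hepatocyte growth factor, Cav1 and Cav2, which coat caveolae, and Tes, Capza2 and St7. It had 51 windows in Cell25, 22 in Cell26, 27 in Cell27, 34 in Cell28, 37 in Cell38 and 8 in Cell39, then 52, 30, 28 and 36 in Cell17, Cell18, Cell19 and Cell20. Its mean was 0.667-fold of the average bin, below it in 9 of 10 nuclei (log2 -0.58 ± 0.50, exact sign-flip permutation p = 0.00586, adjusted p = 0.107). As for all bins, 0 is not the value of no change for this p. The bins next in order held Cntn6, an axonal adhesion molecule, at 0.715-fold, and Ctnna2, the neuronal alpha-catenin, at 0.722-fold. The best covered bin, 86 to 87 Mb, holds 16 genes, among them Tgfa, a ligand of the epidermal growth factor receptor, and the RNA-binding protein genes Tia1 and Pcbp1. Its mean was 1.54-fold (log2 0.62 ± 0.64, exact sign-flip permutation p = 0.0117, adjusted p = 0.134). The bin of Hnrnpa2b1 and Cbx3, which code for an RNA-binding protein and a heterochromatin protein, stood at 1.41-fold, and that of Oxtr, Cav3 and Rad18 at 1.37-fold.

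The bins of 10 very long neuronal genes were covered at 0.880 ± 0.077 of the mean of chromosome 6, below 1 in 10 of 10 nuclei, with a range from 0.749 to 0.979. Against the average autosomal bin, 8 of their 10 bins were below 1, with a median of 0.943, while 72 of the 146 bins of the chromosome were below 1, with a median of 1.01. Cntn6 and Ctnna2 (1098 kb long) were the lowest of the 10. Cntnap2, the longest at 2241 kb, coding for a neurexin-like membrane protein, stood at 1.07-fold, and Cntn3 at 1.04-fold. None of the 10 bins passed the adjusted test, and 1 (that of Cntn6) passed unadjusted (exact sign-flip permutation p = 0.0234, adjusted p = 0.178).

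The bin of the 12 genes of the Hoxa list stood at 1.21 ± 0.41 of the chromosome's mean, above 1 in 8 of 10 nuclei. The bin of Nanog and neighbours such as Dppa3, Gdf3 and Slc2a3 stood at 1.22 ± 0.42, above 1 in 7 nuclei. Both rest on 1 bin and range widely, from 0.605 to 1.85 and from 0.816 to 2.24. The bins of imprinted genes (1.01 ± 0.25), immunoglobulin kappa gene segments (1.02 ± 0.25), vomeronasal receptors (1.02 ± 0.10), bitter taste receptors (1.05 ± 0.11), olfactory receptors (1.09 ± 0.13), natural killer and C-type lectin receptors (1.07 ± 0.18), proto-oncogenes and cell cycle genes (1.07 ± 0.19) and glycolysis genes (1.08 ± 0.25) had means within 0.1 of 1.

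Across nuclei, 2.75% of the windows of chromosome 6 were located in none, against 4.03% on the other autosomes, and 215 windows (1.47%) were located in all 10, against 1.22%. The longest unlocated stretch of a nucleus was 190 kb (Cell27) to 600 kb (Cell39). It overlapped Ctnna2 in 3 of 10 nuclei, at chr6:76430001-77030000 in Cell39, chr6:77280001-77620000 in Cell38 and chr6:77180001-77440000 in Cell20. In Cell26 (330 kb) and Cell28 (250 kb) it covered Mest and Copg2, an imprinted pair, and 40 kb within Copg2 (chr6:30760001-30800000) were located in no nucleus.

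The mean position of chromosome 6 lay at 53.0% of the span in Cell25, 24.2% in Cell26, 47.9% in Cell27, 41.0% in Cell28, 34.7% in Cell38 and 94.3% in Cell39, and at 38.2% in Cell17, 50.7% in Cell18, 51.2% in Cell19 and 43.3% in Cell20. It was the lowest of the 19 autosomes in Cell25, Cell26 and Cell27. Its distance from the mean of the other autosomes was 5.24 ± 2.46% of the span, against 3.63% for the other autosomes taken likewise. The difference was 1.61 ± 2.04 points, above 0 in 9 of 10 nuclei (exact sign-flip permutation p = 0.0332, adjusted p = 0.631). In this measure 0% of the autosomes passed after adjustment and 5.26% (chromosome 6 alone) before it. The side was lower in 6 nuclei, by up to 10.3 points in Cell26, and higher in 4, by up to 6.54 points in Cell39. Its distance from the midpoint of the axis, ranked over all bins of the nucleus, had a mean percentile of 51.8 ± 10.97, against 49.996 for the other autosomes (exact sign-flip permutation p = 0.629, adjusted p = 0.955, background 0%).

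**Figure D3:**
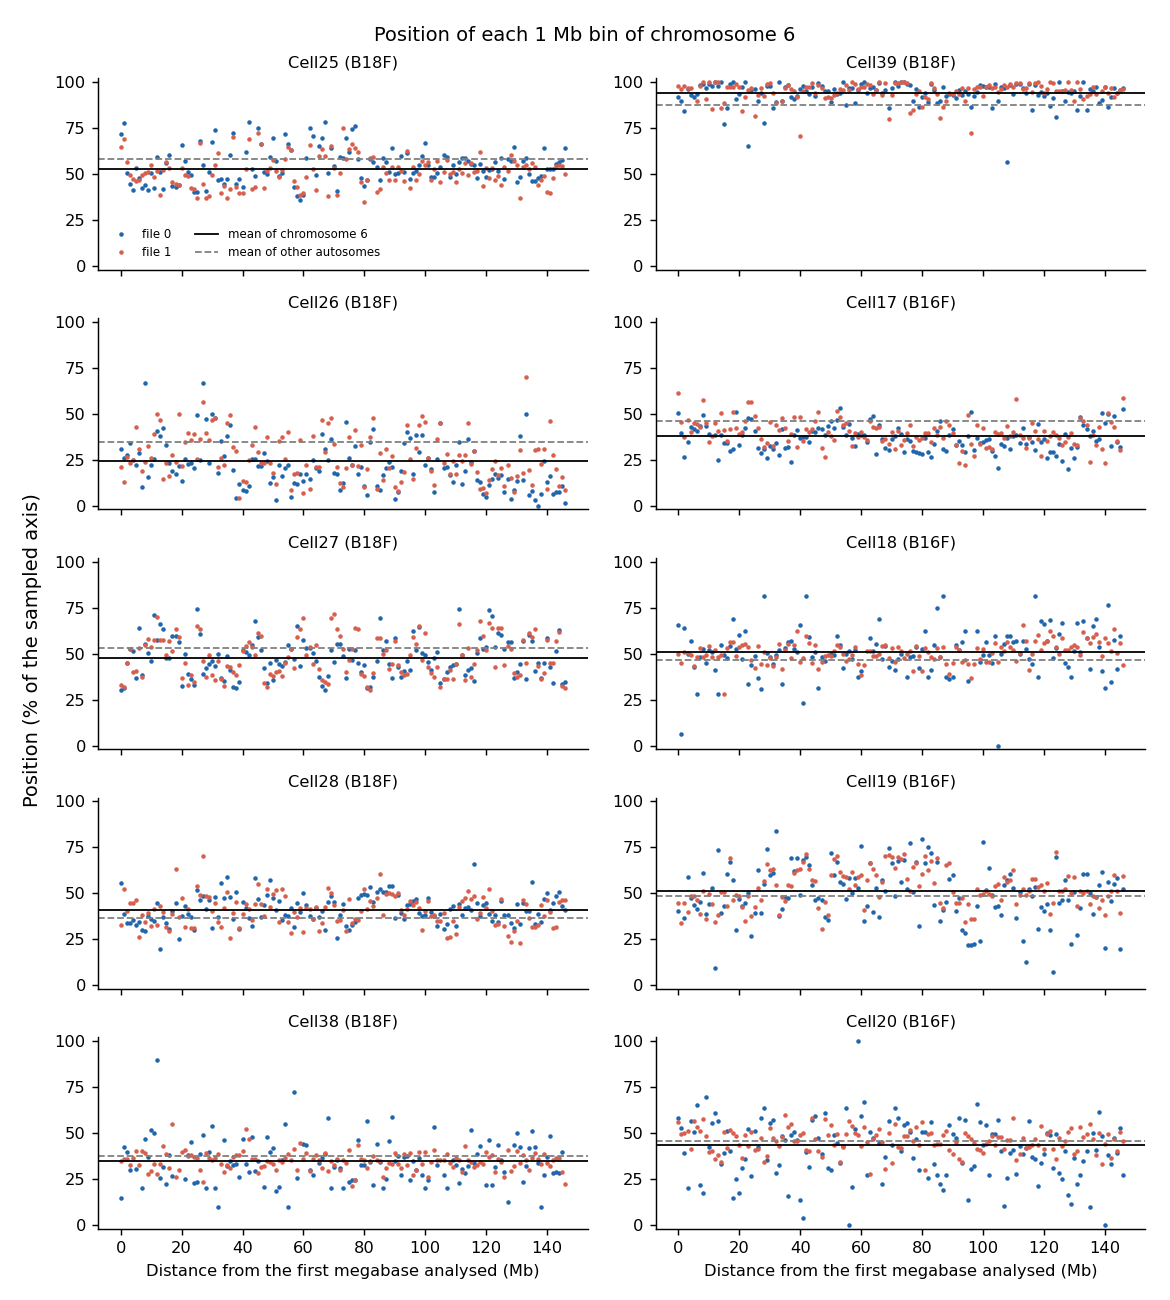
Position of each 1 Mb bin of chromosome 6 in percent of the sampled span against distance along the chromosome, 1 panel a nucleus, B18F nuclei before B16F nuclei. Blue and red points are files 0 and 1, the solid line is the mean of chromosome 6 and the dashed line that of the other autosomes. The solid line lies 10.3 points under the dashed one in Cell26 and 6.54 points over it in Cell39, where most bins are near the high end.

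The path of chromosome 6 was jagged at 1 Mb. Neighbouring bins lay 6.14 ± 1.76% of the span apart in the median, and the largest single step of a nucleus ranged from 21.8% in Cell39 to 47.4% in Cell26. Means of 10 Mb segments differed much less, with a range between the lowest and the highest segment of 12.3 ± 5.89%. That range was widest in Cell19 (22.1%), where segment 73 to 83 Mb lay at 61.2% and segment 93 to 103 Mb at 39.1%. In Cell26 (20.6%) segment 23 to 33 Mb lay at 34.1% and segment 123 to 133 Mb at 13.6%. It was narrowest in Cell39, at 4.85%.

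The distal and the proximal parts of the path, split at 76 Mb, had nearly the same mean position. They differed by 2.03 ± 1.68% of the span in size on chromosome 6, against 3.58 ± 1.37% on the other autosomes, and the largest difference was 5.44% in Cell26. Which segments lay near or far from each other was not shared by the nuclei on average. Over 45 pairs of nuclei, the mean Spearman correlation of the distances between segments was -0.00305 on chromosome 6, against 0.0239 on the other autosomes. These pairs reuse the same 10 nuclei, and no p is given.

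Chromosome 6 was the most compact autosome along the axis on average. Compactness is the log2 of the mean distance of its 1 Mb bins to bins of other autosomes over the mean distance among its own bins. It was 0.20 in Cell25, 0.34 in Cell26, 0.11 in Cell27, 0.28 in Cell28, 0.21 in Cell38 and 1.01 in Cell39. It was 0.59 in Cell17, 0.32 in Cell18, 0.15 in Cell19 and 0.06 in Cell20. The mean was 0.33 ± 0.28, a 1.25-fold distance, against 0.15 for the other autosomes, a 1.11-fold distance. All 10 nuclei lay above the mean of their other autosomes, by 1.02-fold in Cell20 to 1.58-fold in Cell39.

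The difference in compactness was 0.18 ± 0.19 on the log2 scale (exact sign-flip permutation p = 0.00195, adjusted p = 0.0371). This p is the smallest that 10 nuclei can give, and its adjustment covers the 19 autosomes but not the 11 measures taken. Among the 19 autosomes 5.26% passed after adjustment, chromosome 6 alone. Within each nucleus it was never the most compact autosome, and it ranked second in Cell17, Cell18, Cell26 and Cell39. The call was lost in most other settings. With single windows in place of 1 Mb means the difference was 0.11, above 0 in 7 of 10 nuclei (exact permutation p = 0.125, adjusted p = 0.660), and with 1 window a bin it was 0.06 (exact permutation p = 0.0938, adjusted p = 0.635). Without Cell39 it was 0.13, above 0 in 9 of 9 nuclei (exact permutation p = 0.00391, adjusted p = 0.0742). Within the B18F nuclei it was 0.20 ± 0.23 and within the B16F nuclei 0.15 ± 0.14, above 0 in every nucleus of both.

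Bins with more windows average more positions, so density was set beside compactness. Across the 19 autosomes of a nucleus their Spearman correlation had a mean of -0.0553, was above 0 in 4 of 10 nuclei and ranged from -0.528 to 0.768. Cell39 had the fewest windows on chromosome 6 and the highest compactness, and Cell17 the most windows and the next highest. The part of window number in the result was not tested beyond the single-window settings.

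**Figure D4:**
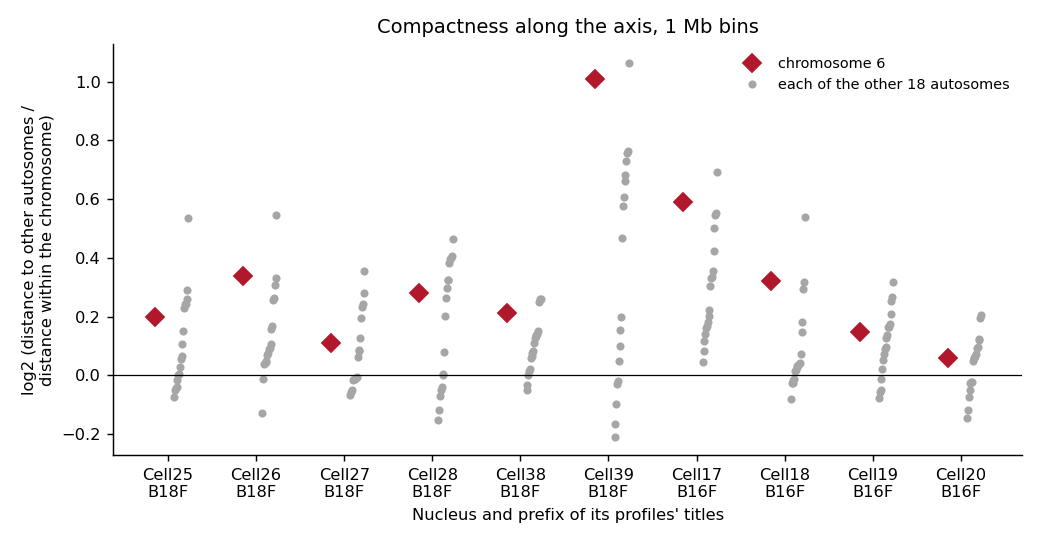
Compactness along the axis (log2 of the distance to other autosomes over the distance within the chromosome, 1 Mb bins) by nucleus. Red diamonds are chromosome 6 and grey points the other 18 autosomes. The diamond is in the upper part of the points in Cell17, Cell18, Cell26 and Cell39, where it stands at 1.01, and amid them in Cell19, Cell20, Cell25, Cell27 and Cell28.

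The spread of the chromosome along the axis ran the same way. The SD of its bins was 9.37 ± 2.3% of the span, against 10.9 ± 1.90% for the other autosomes. The log2 ratio was -0.22 ± 0.27, or 0.860-fold, below 0 in 9 of 10 nuclei, with Cell27 the exception at 1.02-fold. It did not pass after adjustment (exact sign-flip permutation p = 0.00586, adjusted p = 0.111), where the background was 0% adjusted and 21.1% unadjusted. The mean was the lowest of the 19 autosomes, and Cell39 stood apart at 0.522-fold. Without Cell39 the log2 ratio was -0.14. Compactness and spread use the same bin positions and are not separate evidence. The distance between neighbouring bins differed from that of other autosomes by -0.13 ± 0.25 on the log2 scale, lower in 7 of 10 nuclei (exact sign-flip permutation p = 0.0703, adjusted p = 0.445, background 0%). Without Cell39 it was -0.06.

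The distance between bins of chromosome 6 was larger at 100 Mb than at 1 Mb in 10 of 10 nuclei. Divided by the distance between bins of different autosomes, it was 0.677 ± 0.137 at 1 Mb, against 0.743 ± 0.094 on the other autosomes. At 10 Mb it was 0.765 ± 0.180, against 0.904 ± 0.051, and lower on chromosome 6 in 9 of 10 nuclei. At 50 Mb it was 0.783 ± 0.171, against 0.942 ± 0.065, lower in 10 of 10 nuclei. At 100 Mb it was 0.804 ± 0.159, against 0.964 ± 0.043, lower in 9 nuclei. Chromosome 6 had the lowest mean of all chromosomes at 10, 20, 50 and 100 Mb, the last over 15 autosomes long enough. At 50 Mb the ratio was 0.386 in Cell39 and between 0.685 (Cell17) and 0.948 (Cell20) in the other nuclei. These ratios share their positions with compactness, and no test is given.

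**Figure D5:**
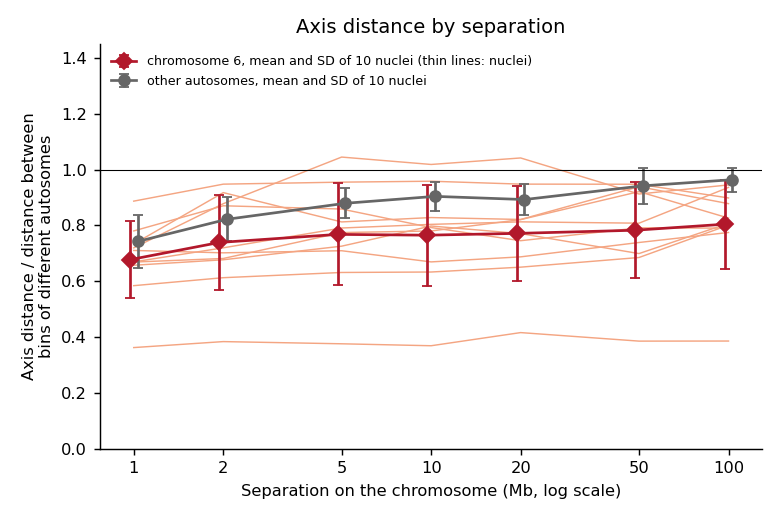
Mean distance along the axis between 1 Mb bins of a chromosome, divided by that between bins of different autosomes, against separation in Mb (log scale). Red diamonds are chromosome 6 and grey circles the other autosomes, with bars of 1 SD over 10 nuclei, and thin lines are chromosome 6 in each nucleus. Grey values join the other autosomes of a nucleus, so grey bars are not comparable with red ones. The red mean goes from 0.677 at 1 Mb to 0.804 at 100 Mb and stays under the grey mean, and the lowest thin line is Cell39.

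Among pairs of 10 Mb segments, 101 of 105 on chromosome 6 were nearer on average than the middle of all autosomal pairs at the same separation, against 757 of 1585 pairs over all autosomes. The mean percentile was 39.0, second nearest to that of chromosome 14 (38.3), where 50 is the middle. Unadjusted, 30 pairs (28.6%) passed as nearer, against 4.23% of all autosomal pairs. None passed as farther, against 3.15% of all pairs, and 7.38% of all pairs passed in either direction. After adjustment 0 passed (smallest adjusted p = 0.387, background 0%). Without Cell18 or without Cell39 the count was 19, for which no share over all pairs is given. Pairs that share a segment are not independent.

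Segment 103 to 113 Mb, which holds the glutamate receptor gene Grm7 and the adhesion gene Cntn4, took part in several of the nearest pairs. It lay at percentile 24.9 with segment 113 to 123 Mb, nearer in 9 of 10 nuclei. With segment 133 to 143 Mb it lay at 26.5, nearer in 10 of 10 nuclei (exact sign-flip permutation p = 0.00195, adjusted p = 0.387). With segment 33 to 43 Mb the percentile was 24.9. The farthest pair was 13 to 23 Mb with 33 to 43 Mb, at 53.6.

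Stretches of chromosome 6 far from its bulk were rare. A far segment was a run of at least 3 located 1 Mb bins in 1 file, all more than 25% of the span from the chromosome's median on the same side. There was 1 on chromosome 6, against a median of 3.5 and a highest count of 8 on the other autosomes and 76 on all autosomes. Chromosomes 8, 10 and 18 also had 1 each. It lay in file 0 of Cell19 at chr6:98000001-101000000, 27.5% of the span below the median, and rested on 34 windows. It holds Foxp1, a forkhead transcription factor gene, Rybp, a Polycomb-associated protein gene, Prok2, Gpr27, Eif4e3, Shq1, Gxylt2, Ppp4r2 and Gm765. In file 0 its bins lay at 22.1%, 21.7% and 22.6% of the span (Cell19 bins 98, 99 and 100), and in file 1 at 44.3%, 36.0% and 36.1%.

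On average 0.103% of the bins of chromosome 6 lay in far segments, against 0.628% on the other autosomes. The difference was -0.53 ± 0.91 points, below 0 in 8 nuclei and at 0 in the other two (exact sign-flip permutation p = 0.00781, adjusted p = 0.0495, where 15.8% of the autosomes, chromosomes 6, 10 and 14, passed). A chromosome with no far bin lies below the mean of the others wherever any of them has one, and each of the 19 autosomes was below 0 in at least 5 nuclei. For these shares 0 is therefore not the value of no change, and no call is read from the p-values, which are given as a description. With 15% as the limit there were 11 runs on chromosome 6, the fewest of the 19, against a median of 25 on the other autosomes (difference -2.90 points, exact permutation p = 0.00195, adjusted p = 0.0371). Among these were the bins of Cntnap2, and those of Ctnna2 and Lrrtm1, in Cell19, and those of Foxp2, Cav1 and Met in Cell26. With 250 kb bins the difference was -0.0264 (exact permutation p = 0.50, adjusted p = 0.633), and without Cell39 it was -0.25 (exact permutation p = 0.0156, adjusted p = 0.0742).

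The 2 files of a nucleus placed the same bin 8.10 ± 2.69% of the span apart, against 12.99 ± 2.36% for bins of chromosome 6 and other autosomes. The log2 ratio of these distances was -0.73 ± 0.40 on chromosome 6 and -0.64 on the other autosomes, a difference of -0.09 ± 0.20 (exact sign-flip permutation p = 0.186, adjusted p = 0.421), where 10.5% of autosomes passed. The paths of the files correlated with Spearman's rho of 0.66 in Cell25, 0.66 in Cell26, 0.79 in Cell27, 0.41 in Cell28, -0.13 in Cell38 and 0.30 in Cell39. In Cell17, Cell18, Cell19 and Cell20 it was 0.38, 0.47, 0.62 and -0.03. It was below 0 in Cell20 and Cell38, and file 0 of Cell38 located only 130 bins of chromosome 6.

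Windows listed in both files were 1.54 ± 0.33 times as many as independent files of those sizes would give on chromosome 6, against 1.61 ± 0.36 on the other autosomes (log2 difference -0.07 ± 0.10, exact sign-flip permutation p = 0.0547, adjusted p = 0.104). For this measure 15.8% of the autosomes passed adjusted and 42.1% unadjusted. Of them 50.6 ± 16.9% had identical positions in both files, against 50.1 ± 15.6% on the other autosomes. The share was 16.99% in Cell38 and 79.5% in Cell39. File 1 held 62.7 ± 12.96% of the listings of chromosome 6, 1.90 ± 2.93 points more than on the other autosomes (exact sign-flip permutation p = 0.0703, adjusted p = 0.223, background 0%).

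Windows next to each other and in 1 file only were in the same file in 84.8% (Cell27) to 97.3% (Cell38) of cases. The excess over what file sizes give was 0.41 points less on chromosome 6 than on the other autosomes (difference -0.41 ± 2.64, exact sign-flip permutation p = 0.658, adjusted p = 0.858, background 5.26%). That mean joins opposite signs. In B18F nuclei the difference was 1.37 ± 0.90 points, above 0 in 6 of 6, and in B16F nuclei -3.08 ± 1.92 points, below 0 in 4 of 4. The B18F minus B16F difference was 4.46 points (exact permutation p = 0.00476 over 210 splits, adjusted p = 0.0524 over 11 measures). No other measure of chromosome 6 had an unadjusted p under 0.05 between the groups of nuclei. The groups differ in the number of slices: B18F nuclei had 7 (Cell26) to 15 (Cell25) profiles, and B16F nuclei 12 (Cell19 and Cell20) to 23 (Cell17). The part of slice number in this difference was not tested, and the labels do not say what the title prefix stands for.

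Toward other autosomes, chromosome 6 lay nearest to chromosome 18 on average, at 0.826 of the mean distance between autosomes (log2 -0.28 ± 0.36, nearer in 9 of 10 nuclei). Chromosome 14 followed at 0.855, nearer in only 6 of 10 nuclei and with a log2 of -1.09 in Cell39. Chromosome 16 stood at 0.856, nearer in 9 of 10 nuclei. These 3 of 18 pairs passed unadjusted (16.7%, against 7.6% of all pairs of autosomes). After adjustment 0 passed (smallest adjusted p = 0.501, background 0%). Chromosome 12 was farthest on average at 1.10-fold, with 1.85-fold in Cell39 and 0.830-fold in Cell26, where it was the nearest. In Cell39 the nearest was chromosome 4, at 0.382-fold.

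Slice by slice, the fullest position of chromosome 6 held 26.2% of its windows in Cell25, 37.3% in Cell26, 57.3% in Cell27, 26.8% in Cell28, 36.3% in Cell38 and 70.3% in Cell39. The other autosomes held 16.4%, 24.6%, 40.5%, 28.8%, 31.5% and 59.0% of theirs there. In Cell17, Cell18, Cell19 and Cell20 it held 17.98%, 24.4%, 16.04% and 22.4%, against 7.63%, 12.9%, 10.9% and 22.3%. The effective number of positions was lower on chromosome 6 than on the other autosomes in 7 of 10 nuclei. Since the fullest position was picked on chromosome 6, its excess there is a description only. The number of slice positions ranged from 7 in Cell26 to 23 in Cell17, so these shares are not comparable between nuclei.

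Named loci were placed by the mean of their 1 Mb bin, averaged over the files that located it. The immunoglobulin kappa locus spans 4 bins and was placed over more than 1 of them. Nanog lay at 47.5% of the span in Cell25, 8.08% in Cell26, 56.1% in Cell27, 45.9% in Cell28, 33.0% in Cell38 and 96.2% in Cell39, and at 30.9%, 59.6%, 48.6% and 44.0% in Cell17, Cell18, Cell19 and Cell20. It stayed 5.59 ± 4.43% of the span from the chromosome's median, farthest in Cell26 at 14.2%. Hoxa9 stayed 5.13 ± 3.85% away. The immunoglobulin kappa locus stayed 3.46 ± 2.93% away, but it averages more windows than 1 bin holds and is not directly comparable. The imprinted genes were farther out: Peg10 lay 10.4 ± 8.51% and Mest 10.0 ± 11.7% from the median. For Mest 1 nucleus decided the value. It was 39.4% away in Cell26, where its bin held 1 window in file 0 and 11 in file 1, and its median over nuclei was 6.51%.

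Loci close to each other on the chromosome could lie as far apart on the axis as distant ones. Distances between loci were taken within each file and then averaged, unlike the file-averaged positions above, so the 2 cannot be compared directly. Nanog and the glycolysis gene Gapdh, whose starts are 2.45 Mb apart, differed by 8.09 ± 2.99% of the span. Hoxa9 and Nanog, 70.5 Mb apart by their starts, differed by 7.62 ± 4.43%, from 1.21% in Cell38 to 14% in Cell27. The nearest pair of the 10 loci was Hoxa9 with the immunoglobulin kappa locus at 6.12 ± 4.81%, where the latter was placed over more than 1 bin. The farthest pair was Mest with Gapdh at 16.6 ± 13.6%, which reached 44.6% in Cell26. The bins of Cntnap2 and Hoxa9 lay 3.53% from each other in Cell39 and 27.6% in Cell19. With 1 position per bin and file, all of these distances hold the spread of windows within the bin as well as that between loci.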

How the data were processed

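The labels' protocols give whole genome amplification of the DNA of a profile and Illumina HiSeq X sequencing. Per the submitters' processing notes, Trim Galore 0.6.4, Bowtie2 2.3.5, Picard and mm10 were used. The deposited files list 10 kb windows with a position along the axis in another unit, per the file headers, which do not name it. How reads became positions is not given in the sources used here. The 5 controls (1 negative, 4 positive) had no positions and entered no test.

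Windows were averaged into 1 Mb bins per file, from 3 Mb on. Each measure was taken per nucleus on chromosome 6 minus the mean of the other 18 autosomes, and tested with an exact two-sided sign-flip permutation test over 1024 sign patterns, with Benjamini-Hochberg adjustment over the 19 autosomes, 2394 bins, all autosome pairs or 1585 segment pairs. Bin coverage used a pseudocount of 1. Nuclei titled B18F and B16F were compared over 210 splits. The labels name no separate cultures, and p-values thus cover only the differences among these nuclei. Python 3.11.15, numpy 2.4.6, pandas 2.3.3 and scipy 1.17.1 were used, and the computation was tested on simulated data. Loci, gene lists and the 3 best and 3 least covered bins were named by rule, and some of them are not reported here. The members and lists were chosen with earlier results of these data known. Gene positions, promoters and microRNAs came from RefSeq tables of GRCm38.p6, the assembly behind mm10, and every symbol of the lists matched. Alternatives were 250 kb bins, at least 5 windows a bin, bin medians, outermost positions, shared windows or 1 file left out, the 6 autosomes nearest in length, other limits for far segments and each nucleus left out.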

Additional observations from a re-analysis of the deposited data

Results flagged for a closer look

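Cell39 stood far from the other nuclei in 4 measures of chromosome 6 against the other autosomes. Its spread was -0.94 on the log2 scale, its compactness difference 0.66, its step between neighbouring bins -0.78, also on the log2 scale, and its share of bins in far segments -3.00 points. The last value came from the other autosomes of Cell39, with a mean of 3.00%, since chromosome 6 itself had 0% there. The gap to the nearest other nucleus exceeded Dixon's 95% value for 10 samples each time, which chance exceeds in about 5% of groups. That rate holds for 1 measure with normal values, and 11 measures were taken. The 4 measures share the same positions, and Cell39 had the fewest windows on chromosome 6 (3191), with 70.3% of them at 1 position. The excess of same-file neighbours differed between the B18F and B16F nuclei by 4.46 points (exact permutation p = 0.00476, adjusted p = 0.0524), positive in 6 of 6 B18F nuclei and negative in 4 of 4 B16F nuclei.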

How the results depend on the processing

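Density, file share, windows in both files, displacement, spread, step and file agreement kept their direction and their side of the adjusted threshold in every setting run. The compactness difference stayed above 0 in all 22 settings but passed only with windows in both files left out (0.14) and without Cell17. It was 0.15 in B16F nuclei alone, 0.20 in B18F nuclei alone, 0.16 against the 6 autosomes nearest in length, 0.13 with 250 kb bins, 0.19 with at least 5 windows in a bin, 0.16 with bin medians, 0.16 with the outermost positions left out, 0.18 in file 0, 0.17 in file 1, and, chosen after seeing the data, 0.11 for single windows and 0.0596 for the first window of a bin. With 1 nucleus left out it was 0.13 to 0.20, and 9 nuclei give an adjusted p of 0.0742 at best where 1 autosome alone reaches the smallest p. The far-segment difference, from whose p no call is read, stayed below 0 and kept an adjusted p under 0.05 with a limit of 15% and without Cell27 or Cell38. It was -0.16 in B16F nuclei alone, -0.77 in B18F nuclei alone, -0.31 against autosomes nearest in length, -0.0264 with 250 kb bins, -0.50 with at least 5 windows, -1.84 with bin medians, -0.42 without outermost positions, -0.70 in file 0, -0.35 in file 1, -0.60 without shared windows, -0.15 for runs of 5 bins and -2.003 for the first window of a bin, and -0.58 to -0.25 with 1 nucleus left out. The causes were not tested.

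Same-file neighbours reversed to 1.37 points in B18F nuclei alone and ranged from -0.71 to 0.20 with 1 nucleus left out, above 0 without Cell18. Distance from the midpoint ranged from -0.12 to 3.32 points, below 0 without Cell17 (-0.06) or Cell26. Bins past the unadjusted threshold numbered 29 against the chromosome's own mean and 10 to 17 with 1 nucleus left out. Nearer segment pairs numbered 19 to 36 with 1 nucleus left out, and pairs with other autosomes 2 to 4. No shares over all autosomes are given for these counts. No paired analysis was possible because nuclei carry no replicate numbers shared by the B18F and B16F groups. Window numbers from 3191 to 10432 limit the positions, and read depth is unknown.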
